A study of Mus musculus with 10 samples.

Results

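The mRNA levels of 9 genes of Hedgehog reception were examined in differentiating C2C12 cells, a mouse myoblast line, with and without siRNA against *Fndc1*, which encodes a secreted fibronectin type III domain protein. The 9 genes, taken by symbol from the 55359 genes of the deposited table, were *Ptch1*, *Smo*, *Gli1*, *Gli2*, *Gli3*, *Sufu*, *Boc*, *Cdon* and *Gas1*. The series held 10 RNA-seq libraries, 5 of cells given a control siRNA (si-Control) and 5 of cells given an siRNA to *Fndc1* (si-*Fndc1*), each at 100 nM. By the sample labels, both groups were grown in 20% FBS and then differentiated in 2% horse serum, with collection on day 4; the description of the series instead has them harvested 48 h after transfection, so the time point rests on the labels and the methods. All libraries came from one established cell line, no label said whether replicates were separate cultures, and p-values therefore measured the spread between these libraries.

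Hedgehog ligands are secreted proteins that bind Patched (PTCH1) at the cell surface. Unliganded PTCH1 holds the membrane protein Smoothened (SMO) inactive, and once this hold is lifted SMO acts at the primary cilium on the GLI transcription factors, which SUFU otherwise keeps in check. CDON, BOC and GAS1 are coreceptors that bind the ligand together with PTCH1. In myoblasts CDON and BOC are also known as components of cadherin complexes at cell contacts that promote differentiation, and *Ptch1* and *Gli1* are themselves classical targets of the pathway.

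Each si-Control library had a total count of 66771605 to 75995168, and each si-*Fndc1* library one of 56332844 to 72839369. Levels are given as FPKM, the deposited value that divides a gene's count by its length and by library size; a gene without a read was listed at 0.0001. Differences are log2 fold changes of si-*Fndc1* over si-Control from edgeR's quasi-likelihood test on the counts, with p-values adjusted by Benjamini-Hochberg over the 13548 genes that had a mean FPKM of at least 0.5, and a gene was called at an adjusted p under 0.05. Myoblast and myotube markers were present in both groups, and 10 myotube genes together had an FPKM of 3528 to 3968 per si-Control library, against 3312 to 3986 per si-*Fndc1* library. That sum mostly reflects the most abundant of the 10. Singly, 3 of the 10 were called (2 higher, 1 lower), against 34.4% of all tested genes. The targeted gene, *Fndc1*, had an FPKM of 27.8 ± 2.04 (SD, n = 5) in si-Control and 20.9 ± 1.70 (SD, n = 5) in si-*Fndc1*, with no overlap, and fell by 0.40 on the log2 scale (adjusted p = 0.000934), or by 0.21 with the offset for base composition described below (adjusted p = 0.0128). The list of hepatocyte markers summed to an FPKM of 50.6 to 176 per si-*Fndc1* library, against 0.0454 to 5.94 per si-Control library. The labels name only C2C12. All 11 tested markers of that list were called higher in si-*Fndc1*, against 17.3% of all tested genes. Most of the 11 averaged an FPKM under 0.5 in si-Control and passed the filter only through si-*Fndc1*. The direction of those calls was therefore largely set by the filter. Endothelial and adipocyte markers were at or near 0 in all 10 libraries.

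Of the 9 genes, *Smo* alone was called. Its mRNA was lower in si-*Fndc1*, at 0.792 times the si-Control level in FPKM. *Gli1* and *Gli2* lay below the filter on low values, so 7 genes were tested, and 1 of these 7 was called (14.3%) against 34.4% of all tested genes (17.3% called higher and 17.2% called lower). The log2 fold change was below zero for 6 of the 7, with a median of -0.13, whereas 49.3% of all tested genes lay below zero and their median was 0.00.

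The fold changes varied with the base composition of the transcripts. Across the 11185 tested genes with a known length and GC content (82.6%), the log2 fold change and GC content had a Spearman correlation of -0.52, a description over genes, which share libraries and are not replicates. The median log2 fold change ran from 0.21 in the GC decile of genes with the lowest GC content to -0.22 in the decile with the highest. A second fit carried an offset for the trend with GC content and length, which removes the trend whatever its source. The source of the trend was not tested. In the second fit this correlation was -0.01 and 22.5% of the genes were called. *Smo* was not called in that fit, and *Gas1* was called higher. Of the 7 tested genes, 4 then lay above zero, with a median of 0.03.

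To show what these differences in composition look like, a coding stretch of 120 bases was taken from *Smo*, *Gas1* and *Cdon*, the genes whose calls the offset changed and the most abundant of the 9. Each is the stretch within 1 exon whose GC content is closest to that of its whole transcript, read 5′ to 3′ from the annotated transcripts of the build NCBIM37 with G and C in capitals. The *Smo* stretch is coding bases 571 to 690 in exon 3 of 12 (chr6:29704343-29704462, plus strand), the *Gas1* stretch is coding bases 802 to 921 in its only exon (chr13:60277382-60277501, minus strand), and the *Cdon* stretch is coding bases 91 to 210 in exon 2 of 19 (chr9:35260263-35260382, plus strand).
Smo: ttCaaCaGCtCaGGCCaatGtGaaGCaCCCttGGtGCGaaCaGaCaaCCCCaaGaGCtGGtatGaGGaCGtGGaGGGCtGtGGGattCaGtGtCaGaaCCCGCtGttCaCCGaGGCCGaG
Gas1: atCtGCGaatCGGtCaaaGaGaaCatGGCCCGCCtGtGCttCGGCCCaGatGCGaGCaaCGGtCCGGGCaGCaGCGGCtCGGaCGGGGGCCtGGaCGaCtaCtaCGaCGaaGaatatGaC
Cdon: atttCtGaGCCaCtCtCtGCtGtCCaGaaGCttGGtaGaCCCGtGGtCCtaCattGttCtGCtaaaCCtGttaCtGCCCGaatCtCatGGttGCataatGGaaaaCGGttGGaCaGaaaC
The GC content was 57.5% in the *Smo* stretch (57.8% over the transcript), 61.7% in the *Gas1* stretch (58.4%) and 47.5% in the *Cdon* stretch (47.6%). *Smo* and *Gas1* thus came from the GC-rich end of the tested genes, and *Cdon* from the middle.

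The 9 genes differed widely in abundance in these cells. *Cdon* was the highest, with a mean FPKM of 72.5 ± 2.77 (SD, n = 10 libraries), above 95.8% of the tested genes, and was followed by *Gas1* at 49.3 ± 2.18, above 93.5% of them. *Smo* came next at 13.9 ± 1.76, *Sufu* at 3.87 ± 0.340, *Gli3* at 2.98 ± 0.273, *Boc* at 2.77 ± 0.223 and *Ptch1* at 1.15 ± 0.134. *Gli1* at 0.0734 ± 0.0503 and *Gli2* at 0.0373 ± 0.0190 were close to the limit of detection. Each gene exceeded the next one in this order in all 10 libraries, apart from *Gli3* over *Boc* (8 of 10) and *Gli1* over *Gli2* (7 of 10), whose ranges overlapped. The coreceptor *Cdon* was thus far above its relative *Boc*, by 22.1-fold to 29.0-fold in FPKM within a library, and *Smo* was 10.1-fold to 14.9-fold above *Ptch1*. These ratios, like the order of the genes, depend on the gene lengths used for the FPKM. The lengths implied by count and FPKM were 8578 bases for *Cdon*, 4952 for *Boc*, 6251 for *Smo* and 15810 for *Ptch1*.

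**Figure D1:**
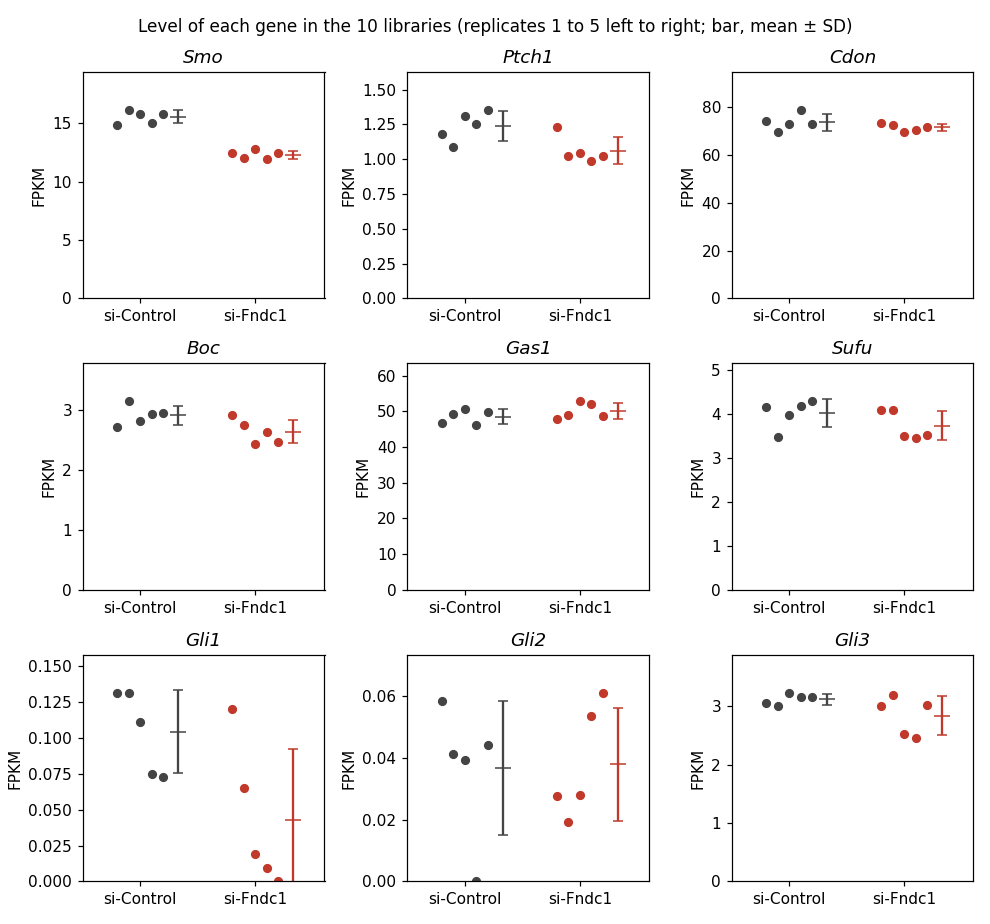
FPKM (vertical axes, each starting at 0) of the 9 genes in the 5 si-Control libraries (grey) and the 5 si-*Fndc1* libraries (red), with replicates 1 to 5 from left to right and the mean ± SD beside them; the lower end of the *Gli1* bar in si-*Fndc1* runs below 0 and is not drawn. Only for *Smo* do the groups not overlap, the si-Control libraries lying at 14.85 to 16.15 and the si-*Fndc1* libraries at 11.89 to 12.74.

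*Smo* (ENSMUSG00000001761, chr6:29735502-29761364, plus strand, as the table lists it; the submitters' processing notes name GRCm39) encodes the signal transducer of the pathway. Its FPKM was 14.85, 16.15, 15.80, 15.04 and 15.78 in si-Control replicates 1 to 5 and 12.44, 11.97, 12.74, 11.89 and 12.42 in si-*Fndc1* replicates 1 to 5. The highest si-*Fndc1* value was below the lowest si-Control value. Among the 7 tested genes this held for *Smo* alone, in FPKM and in counts scaled to library size (TMM). In scaled counts, groups without overlap were found for 25.1% of all tested genes (12.3% lower in si-*Fndc1*). The mean FPKM of *Smo* was 15.5 ± 0.553 in si-Control and 12.3 ± 0.354 in si-*Fndc1* (SD, n = 5 each), from 4362 to 7197 reads per library. Its log2 fold change was -0.33 ± 0.03 (SE), with an edgeR adjusted p of 7e-05. In the decile of genes with a like GC content, the median log2 fold change was -0.15, and 19.1% of these 1118 genes lay lower than *Smo*. With the offset for GC content and length, the log2 fold change of *Smo* was -0.10 ± 0.04 (SE; 95% interval -0.19 to -0.01), and its adjusted p was 0.0998. Reads of the processed pseudogene *Gm13717* within the *Smo* locus were few (7 to 49 per library). Whether the hepatocyte transcripts of the si-*Fndc1* libraries had a part in the difference was not tested, and in bulk RNA fewer cells of a type and less RNA per cell cannot be told apart.

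*Ptch1* (ENSMUSG00000021466, chr13:63656142-63721274, minus strand) encodes the ligand receptor and is a target of the pathway. Its FPKM was 1.184, 1.084, 1.311, 1.25 and 1.356 in si-Control replicates 1 to 5 and 1.232, 1.020, 1.043, 0.990 and 1.020 in the si-*Fndc1* replicates. Replicate 1 of si-*Fndc1* lay inside the si-Control range, and the other si-*Fndc1* libraries lay below it. For *Ptch1* the log2 fold change was -0.21 ± 0.08 (SE), with an unadjusted p of 0.0199 and an edgeR adjusted p of 0.0559, so that it was not called. The call depended on single libraries: the adjusted p was 0.0154 (log2 fold change -0.27) without si-*Fndc1* replicate 1 and 0.0244 (-0.26) without si-Control replicate 2. With DESeq2 the adjusted p of *Ptch1* was 0.0403. With the offset its log2 fold change was 0.07 (95% interval -0.07 to 0.22; adjusted p = 0.481), which is the opposite sign.

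Among the coreceptors, none was called without the offset. *Cdon* (ENSMUSG00000038119, chr9:35332424-35418947, plus strand) had an FPKM of 74.18, 69.35, 72.64, 78.83 and 72.69 in si-Control and 73.38, 72.28, 69.39, 70.31 and 71.67 in si-*Fndc1*. The si-*Fndc1* libraries all lay within the si-Control range. *Cdon* had a log2 fold change of -0.03 ± 0.03 (SE), with a 95% interval of -0.11 to 0.04 and an adjusted p of 0.471, and with the offset it was -0.02 (-0.07 to 0.03; adjusted p = 0.594). At 34545 to 49106 reads per library *Cdon* was the most deeply counted of the 9, and its 95% interval was the narrowest of the 7 in both fits.

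*Boc* (ENSMUSG00000022687, chr16:44305412-44379260, minus strand), a relative of *Cdon*, had an FPKM of 2.707, 3.146, 2.815, 2.926 and 2.944 in si-Control and 2.910, 2.753, 2.431, 2.628 and 2.472 in si-*Fndc1*. The lowest 3 values of *Boc* were in si-*Fndc1* and the groups overlapped. *Boc* had a log2 fold change of -0.13 ± 0.07 (SE; 95% interval -0.28 to 0.01; adjusted p = 0.147), and one of 0.03 (-0.11 to 0.17; adjusted p = 0.803) with the offset.

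*Gas1* (ENSMUSG00000052957, chr13:60322219-60325179, minus strand) encodes a coreceptor that is anchored to the membrane by a lipid and was first known as a growth arrest gene. Its FPKM was 46.66, 49.24, 50.77, 46.04 and 49.73 in si-Control and 47.77, 48.99, 52.85, 52.01 and 48.65 in si-*Fndc1*. The highest 2 values were in si-*Fndc1*, and the remaining 3 lay within the si-Control range. The log2 fold change of *Gas1* was 0.05 ± 0.04 (SE), with an adjusted p of 0.360. *Gas1* belonged to the decile of genes with the highest GC content, whose median log2 fold change was -0.22, and it lay above 88.8% of them. That decile spans a GC content of 58.31% to 74.2%, and *Gas1*, at 58.36%, lies at its lower edge. The decile just below had a median of -0.15. With the offset, *Gas1* was called higher at 0.21 ± 0.04 (SE; 95% interval 0.14 to 0.29; edgeR adjusted p = 0.00171), and the adjusted p in that fit was 0.00226 to 0.00590 when single libraries were left out. The lncRNA gene *Gm48488* overlaps *Gas1* on the opposite strand with 545 to 1713 reads per library; whether the counting used strand is not given in the sources used here, so reads of the pair may not be fully separated.

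**Figure D2:**
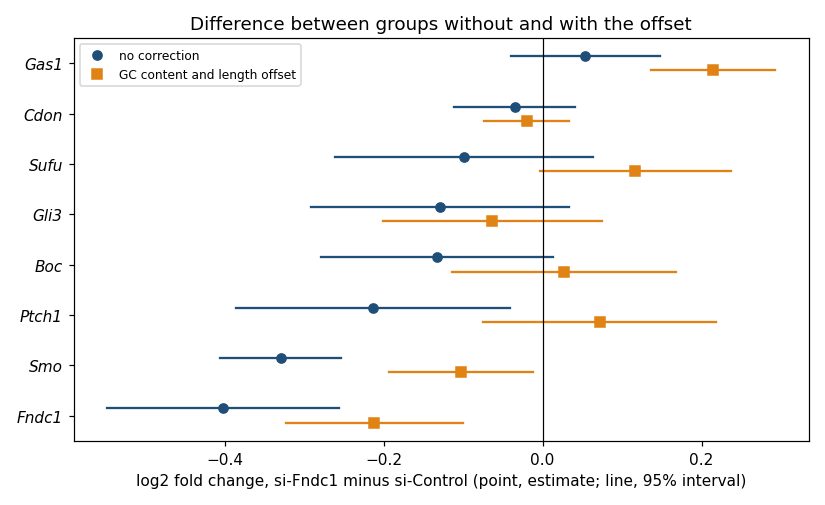
Log2 fold change of si-*Fndc1* over si-Control (horizontal axis) of the 7 tested genes and of *Fndc1*, as points with 95% intervals, without the offset (blue circles) and with the offset for GC content and length (orange squares). The offset moved every estimate upwards; *Smo* went from -0.33 to -0.10 and *Gas1* from 0.05 to 0.21, and *Ptch1*, *Boc* and *Sufu* crossed zero with intervals that include it.

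*Sufu* (ENSMUSG00000025231, chr19:46385335-46477243, plus strand), the gene of the inhibitor that holds GLI proteins in the cytoplasm, had an FPKM of 4.152, 3.481, 3.980, 4.177 and 4.285 in si-Control and 4.090, 4.080, 3.498, 3.451 and 3.520 in si-*Fndc1*. Replicates 1 and 2 of si-*Fndc1* were at the si-Control level of *Sufu* and the other 3 were close to the lowest si-Control library. For *Sufu* the log2 fold change was -0.10 ± 0.07 (SE; 95% interval -0.26 to 0.06; adjusted p = 0.328), and 0.12 (-0.00349 to 0.24; adjusted p = 0.154) with the offset.

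Of the 3 GLI factors, *Gli3*, whose product acts largely as a repressor when the pathway is off, made up nearly all of the transcript. It held 94.1% to 97.7% of the summed FPKM of *Gli1*, *Gli2* and *Gli3* in the si-Control libraries and 95.3% to 98.2% in the si-*Fndc1* libraries. *Gli3* (ENSMUSG00000021318, chr13:15637820-15904611, plus strand) had an FPKM of 3.051, 2.997, 3.230, 3.162 and 3.150 in si-Control and 2.996, 3.194, 2.525, 2.447 and 3.021 in si-*Fndc1*. Replicates 3 and 4 of si-*Fndc1* stood below all other libraries for *Gli3*, and the other 3 lay in or just under the si-Control range. The log2 fold change of *Gli3* was -0.13 ± 0.07 (SE; 95% interval -0.29 to 0.03; adjusted p = 0.200), and -0.06 (-0.20 to 0.08; adjusted p = 0.515) with the offset. In its GC decile, with a median of 0.03, 17.5% of the genes lay lower than *Gli3*. For *Smo* in its own decile this share was 19.1%.

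*Gli1* (ENSMUSG00000025407, chr10:127165751-127177843, minus strand), the activator that is itself induced by Hedgehog signalling, had 56, 52, 44, 31 and 28 reads in si-Control and 48, 27, 8, 4 and 0 reads in si-*Fndc1*. The count of 0 in si-*Fndc1* replicate 5, the library with the lowest total, allows up to 3 reads (a CPM of 0.0533), a limit that covers counting error only. The groups overlapped, since replicate 1 of si-*Fndc1* had more reads than 3 of the si-Control libraries. The other si-*Fndc1* libraries lay below every si-Control library, in reads and in counts scaled to library size, as was seen for the FPKM of *Ptch1*. In the fit without a filter on low values the log2 fold change of *Gli1* was -1.24 ± 0.77 (SE), with an adjusted p of 0.299. *Gli2* (ENSMUSG00000048402, chr1:118761862-118981349, minus strand), the main transcriptional activator in many tissues, had 35, 23, 22, 0 and 23 reads in si-Control and 15, 11, 16, 30 and 27 reads in si-*Fndc1*. In the same fit its log2 fold change was 0.05 ± 0.73 (SE; adjusted p = 0.983). In all, si-Control and si-*Fndc1* had 211 and 87 reads of *Gli1* and 103 and 99 reads of *Gli2*. At these counts and this spread between libraries, neither gene was called in that fit.

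**Figure D3:**
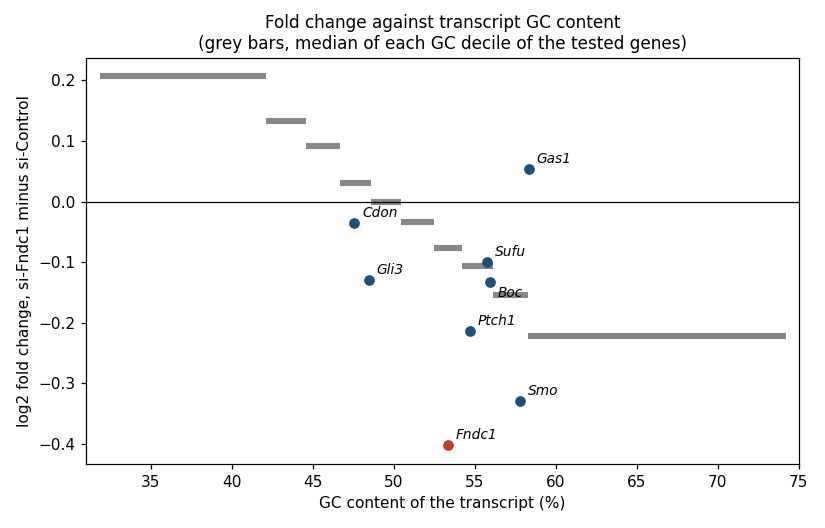
Log2 fold change (vertical axis) against the GC content of the transcript in percent (horizontal axis) for the 7 tested genes (blue) and *Fndc1* (red), with grey bars for the median of each GC decile of the 11185 genes, drawn over the range of its GC content. The medians fall from 0.21 to -0.22. *Smo*, *Ptch1*, *Gli3* and *Cdon* lie below the medians of their deciles (-0.15, -0.11, 0.03 and 0.03). *Gas1* lies above its own (-0.22), and *Sufu* and *Boc* lie close to theirs (-0.11).

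The 3 tested genes whose log2 CPM followed that of *Smo* most closely over the 10 libraries were *Aldh3b1*, an aldehyde dehydrogenase (Pearson r = 0.992), *Pkm*, the muscle pyruvate kinase (0.989), and *Slc39a1*, a zinc transporter (0.985). Both groups contribute to these values; with each group centred on its own mean, r was 0.865, 0.798 and 0.732. The points share libraries and depth, and the GC content of these transcripts was 56.9%, 56.0% and 53.2%, against 57.8% for *Smo*. The 3 genes were picked on the r over both groups, so a decrease like that of *Smo* was largely set by the choice. The r within groups comes from genes picked in the same way. The log2 fold changes of the 3 genes were -0.39, -0.36 and -0.21, with edgeR adjusted p-values of 2.12e-05, 2.93e-05 and 0.000144. With the offset they were -0.34 for *Aldh3b1*, -0.19 for *Pkm* and -0.23 for *Slc39a1*, and all 3 were called (adjusted p = 5.81e-05, 0.00167 and 0.000151).

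Beyond these genes, 86 others of the pathway, of the cilium and linked to CDON and BOC in myoblasts were followed as 6 lists. Of the 86, 67 were tested and 28 were called (41.8%; 11 higher and 17 lower), against 34.4% of all tested genes, with a median log2 fold change of -0.06. With the offset 13 of 66 were called (19.7%; 4 higher and 9 lower), against 22.5%. In both fits 7 genes were called in the same direction: *Hhat*, *Kif7*, *Csnk1e*, *Kif3a*, *Tcf3* and *Ntn4* were lower and *Myod1* was higher.

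Hedgehog ligand transcripts were at or near the limit of detection. *Shh* had 0 reads in all 10 libraries, which allows up to 3 reads in each (a CPM of 0.0395 to 0.0533). *Ihh* had 0 to 23 reads per library and *Dhh* 0 to 9. Of the genes for ligand maturation and release, 2 of 5 were tested. *Hhat*, the acyltransferase that attaches palmitate to Hedgehog ligands, had an FPKM of 1.38 ± 0.153 in si-Control and 1.04 ± 0.0775 in si-*Fndc1* (SD, n = 5 each) and fell by 0.40 on the log2 scale (edgeR adjusted p = 0.00490). *Hhat* was also called with the offset (log2 fold change -0.38, adjusted p = 0.0137). *Disp1*, which releases the ligand from producing cells, was not called (-0.06, adjusted p = 0.371). Of the other surface components only the ciliary receptor gene *Gpr161* was tested, and it was not called (-0.08, adjusted p = 0.50, and 0.06, adjusted p = 0.657, with the offset).

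With all 10 libraries, none of the 6 tested canonical target genes was called by edgeR, with or without the offset, and none had an unadjusted p under 0.05 but *Ccnd2*. Of all tested genes, 34.4% were called without the offset and 22.5% with it. The 6 genes are too few to set the targets apart from these shares. They do not include the classical targets *Ptch1* and *Gli1*, which are given above. The log2 fold changes were 0.11 for *Ccnd1* and -0.17 for *Ccnd2*, which encode D cyclins (adjusted p = 0.382 and 0.0602), and -0.12 for *Bcl2*, an inhibitor of apoptosis (adjusted p = 0.360). They were -0.14 for the transcription factor gene *Foxc2* (adjusted p = 0.355), 0.03 for *Sfrp1*, a secreted Wnt modulator (adjusted p = 0.886), and 0.01 for *Cyp1b1*, a cytochrome P450 gene (adjusted p = 0.881). *Ccnd2* was called lower with DESeq2, and by edgeR when si-Control replicate 5 was left out (-0.20, adjusted p = 0.0414) or si-*Fndc1* replicate 4 (-0.20, adjusted p = 0.0436). The targets *Hhip*, *Mycn*, *Foxf1*, *Nkx2-2* and *Hsd11b2* lay below the filter, the highest of these being *Foxf1* with an FPKM of 0.312 ± 0.0683 in si-Control and 0.218 ± 0.0704 in si-*Fndc1* (SD, n = 5 each).

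Genes for GLI processing and regulation had 10 of 23 tested members called (43.5%, against 34.4% of all tested genes), 4 higher and 6 lower. By p-value the first 4 were *Csnk1e*, a casein kinase 1 gene (log2 fold change -0.30, adjusted p = 3.87e-05), *Cul1*, the scaffold of SCF ubiquitin ligases (0.22, adjusted p = 0.000304), *Evc*, a ciliary partner of SMO (-0.37, adjusted p = 0.000553), and *Kif7*, the ciliary kinesin that regulates GLI proteins (-0.50, adjusted p = 0.00129). *Kif7* had an FPKM of 1.96 ± 0.191 in si-Control and 1.37 ± 0.113 in si-*Fndc1* (SD, n = 5 each). With the offset *Csnk1e* (-0.09, adjusted p = 0.0269) and *Kif7* (-0.26, adjusted p = 0.0430) were called lower, and *Cul1* (0.08, adjusted p = 0.0695) and *Evc* (-0.13, adjusted p = 0.115) were not called. The offset fit called 5 of the 23 (21.7%, against 22.5% of all genes), and the other 3 were higher: *Evc2* (0.15, adjusted p = 0.0366), *Iqce* (0.22, adjusted p = 0.0232) and *Btrc* (0.17, adjusted p = 0.0439), whose values without it were -0.06, -0.07 and -0.05.

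Genes for transport in the cilium had 11 of 18 members called (61.1%, against 34.4% of all tested genes), 4 higher and 7 lower. By p-value the first 4 were *Hspb11*, which encodes IFT25 (0.58, adjusted p = 0.00761), *Ift81* (0.30, adjusted p = 0.00859), *Ift140* (-0.26, adjusted p = 0.00875) and *Ift172* (-0.24, adjusted p = 0.0120), all subunits of intraflagellar transport trains. None of these 4 was called with the offset, where adjusted p-values were 0.130 for *Hspb11*, 0.125 for *Ift81*, 0.275 for *Ift140* and 0.173 for *Ift172*. The 2 of 18 genes called with the offset (11.1%, against 22.5%) were both lower, *Kif3a*, a motor subunit of anterograde transport (-0.31, adjusted p = 0.000278), and *Ift52* (-0.13, adjusted p = 0.0221).

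Among the genes linked to CDON and BOC in myoblasts, 6 of 17 tested genes were called (35.3%, against 34.4% of all tested genes), 3 higher and 3 lower. That list was not limited to proteins that bind CDON or BOC, and it includes genes of myogenic transcription factors. *Tcf3*, which encodes the E proteins that pair with MYOD, had an FPKM of 21.6 ± 0.847 in si-Control and 16.3 ± 0.746 in si-*Fndc1* (SD, n = 5 each) and a log2 fold change of -0.40 (adjusted p = 7.83e-05). *Cdh15*, the gene of M-cadherin, was called lower (-0.18, adjusted p = 0.00208), as was *Ntn4*, a netrin gene (-0.15, adjusted p = 0.00960), whereas *Cdc42*, a small GTPase gene, was called higher (0.15, adjusted p = 0.0106). With the offset *Tcf3* (-0.13, adjusted p = 0.0488) and *Ntn4* (-0.13, adjusted p = 0.0284) were still called lower, *Cdh15* was not called (0.04, adjusted p = 0.388), and *Cdc42* was called lower (-0.08, adjusted p = 0.0315). That fit called 5 of the 17 (29.4%, against 22.5%), the others being the myogenic factor genes *Myog*, lower (-0.17, adjusted p = 0.0295, and -0.12, adjusted p = 0.137, without the offset), and *Myod1*, higher (0.25, adjusted p = 0.00118, and 0.16, adjusted p = 0.0162, without it).

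**Figure D4:**
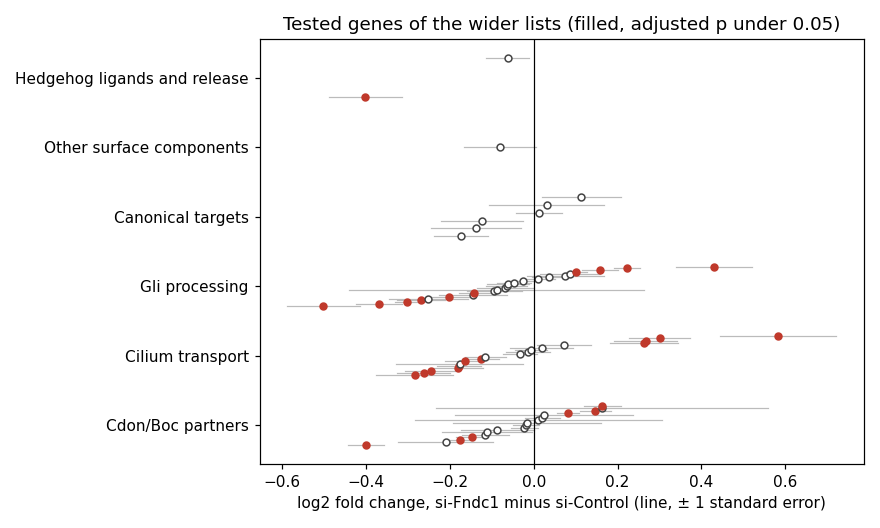
Log2 fold change of si-*Fndc1* over si-Control (horizontal axis, lines ± 1 SE) of the tested genes in the 6 wider lists (rows), without the offset; filled points have an adjusted p under 0.05. Called genes lie on both sides of zero in the lists for GLI processing (4 higher, 6 lower) and the cilium (4 higher, 7 lower). The same holds for the genes linked to CDON and BOC (the row of partners, 3 higher, 3 lower). None of the 6 canonical targets is filled. Of all tested genes, 34.4% were called.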

How the data were processed

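RNA-seq of 10 libraries of C2C12 cells was used, grouped by the genotype in the labels. The authors deposited whole-number counts per gene without normalization and, beside them, FPKM values, with 55359 genes and 0 columns of values without a sample. The methods name TopHat, htseq-count, mm10 and 4 libraries, STAR and mm9 are given in the series description, and the submitters' processing notes name cutadapt 1.9, FastQC and GRCm39; which applies to the files is not given in the sources used here, nor which 4 libraries, so all 10 were used. Coordinates were printed as listed.

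Counts were tested with edgeR 4.0.16 (quasi-likelihood, TMM) in R 4.3.3, on genes whose FPKM averaged 0.5 or more. Intervals are 95%. The offset was the trend of natural-log counts (0.5 added), fitted by robust regression in each library. The regression used splines (5 degrees of freedom) of GC content and of the length implied by count and FPKM. GC content came from the longest coding transcript in NCBIM37, matched by identifier. DESeq2 1.42.0 and limma 3.58.1 on log2(FPKM + 1) and log2(FPKM + 0.1) were alternatives. log2 CPM used a prior count of 2. The edgeR fit without the offset was tested on simulated counts to which no trend with GC content or length was added. The fit with the offset was not tested in this way. Tables and figures used Python 3.11.15, pandas 2.3.3, numpy 2.4.6 and matplotlib 3.10.9.

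No library repeated another of its group: over 15216 genes with 10 or more reads, the lowest chi-square of the 20 pairs was 35.8 times its degrees of freedom. The 9 genes and all lists were chosen with earlier results of these data known. Named were the 9 genes, *Fndc1*, the called genes of each list (the 4 smallest p-values where more were called), ligands and canonical targets whatever their call (apart from an item not reported here), and the 3 genes closest to *Smo*; *Kif3a*, *Ift52*, *Myod1*, *Myog*, *Evc2*, *Iqce*, *Btrc*, *Gpr161*, *Gm13717* and *Gm48488* were named after their values were seen. The marker lists gave 2 of 5 tested myoblast genes called (1 higher, 1 lower), 3 of 10 myotube genes (2 higher, 1 lower), 11 of 11 hepatocyte genes (all higher), 0 of 1 blood gene, 1 of 6 cycling genes (higher), and no tested endothelial or adipocyte gene. Of all tested genes, 34.4% were called. Most of the hepatocyte genes passed the filter only through si-*Fndc1*.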

Additional observations from a re-analysis of the deposited data

Results flagged for a closer look

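In si-*Fndc1* replicate 1 the FPKM of *Ptch1* was 1.232, against 0.990 to 1.043 in the other 4 si-*Fndc1* libraries. Its gap to the nearest of them was 0.780 of the range of the group, above Dixon's critical value of 0.710 for 5 samples. This was 1 of 20 groups examined (the 9 genes and *Fndc1* in either condition), and chance alone sets about 1 in 20 groups apart in this way. The cause was not tested.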

How the results depend on the processing

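Without the offset, *Smo* was called lower under all 19 alternatives (log2 fold change -0.34 to -0.31; -0.34 to -0.32 with a library left out). With the offset for GC content and length it was -0.10, and the number of tested genes called was 2517 of 11185 (1651 with a replicate block as well), against 4663 of 13548 and 4244 of the same 11185 without it. The number called of the 9 genes was 1 throughout (*Gas1* in place of *Smo* in both fits with the offset), except for 2 with DESeq2 and 1 to 2 with a library left out, the second gene being *Ptch1*; with a library left out, 4000 to 4627 genes were called in all. Of the 66 wider genes in both fits, 22 changed sign with the offset. Among genes named by the rule, estimates changed sign for *Ptch1* (0.0721), *Sufu* (0.117), *Boc* (0.0270), *Foxc2* (0.0880), *Cyp1b1* (-0.0499), *Cdh15* (0.0365) and *Cdc42* (-0.0832), and with the replicate block and offset together to 0.0713, 0.117, 0.0269, 0.0883, -0.0488, 0.0364 and -0.0833. With a library left out, the log2 fold change of *Sfrp1* was -0.0472 to 0.0950, that of *Cyp1b1* -0.0239 to 0.0317 and, with the offset, that of *Boc* -0.0045 to 0.0636 (this last alternative was chosen after seeing the data). Of the 86 wider genes, 28 were called, against 16 at a mean FPKM of at least 5 (43.2% of only 37 tested, against 41.8% of 67), 16 with the replicate block, 13 with the offset and 4 with both; beyond the smaller number tested under the stricter filter, the cause of these changes was not tested.

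The replicate numbers did not pair the libraries: the deviations of same-numbered libraries correlated at -0.0553 to 0.0643 over 5 pairs, and 1 of 5 si-*Fndc1* libraries correlated best with its own number. With a replicate block 3572 genes were called in all, and *Smo* remained the only one of the 9 (1 called). Counts of *Gli1* and *Gli2* limit what can be seen of them.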
